A study of Mus musculus with 20 samples.

Results

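The genes described here encode the interferon-inducible oligoadenylate synthetase (OAS) family of the mouse and the main cytosolic sensors of double-stranded RNA. The 10 genes, chosen by name from the 20960 genes of the deposited table, are Oas1a, Oas1g, Oas2, Oas3, Oasl1, Oasl2, Ddx58 (encoding RIG-I), Ifih1 (MDA5), Dhx58 (LGP2) and Eif2ak2 (the kinase PKR). They were chosen with earlier results of these data known. All 10 were among the 15723 genes that passed the filter on low counts. Polyadenylated RNA of mouse ovary was sequenced in 20 libraries, 5 in each of 4 groups. Control carries no treatment in the labels, Model is labelled ovarian cancer, and LNPIFN-Y and ptLNPIFN-Y are labelled ovarian cancer with the particle of that name. Per the series' design text, the mice were C57BL/6, the tumours were grown from ID8Luci cells (a luciferase-marked mouse ovarian cancer line) placed in the ovarian bursa, and the particles were lipid nanoparticles carrying interferon-γ mRNA, with "pt" for peptide-targeted. The design text places tumour cell injection after an expansion of the bursa with another particle, ptLNPFSHα&β. Whether the Control animals had this expansion, the animals' ages, doses and times of sampling are not stated for these libraries, nor is it stated that each library is a separate animal, so p-values measure the spread between libraries, which may be in part technical. No group received particles without interferon-γ mRNA, so the effects of the particle and of its mRNA cannot be told apart. All libraries carry the same batch label.

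OAS enzymes bind double-stranded RNA in the cytosol and make short oligoadenylates, second messengers of the antiviral response. RIG-I and MDA5 bind double-stranded RNA as well and signal through the mitochondrial adaptor MAVS to IRF3 and IRF7, which start transcription of type I interferon. PKR binds double-stranded RNA and phosphorylates the initiation factor eIF2α, which lowers translation. These genes are transcribed at a low level in resting tissue and are induced by type I interferon through the complex ISGF3, which holds STAT2 and IRF9 and binds the interferon-stimulated response element (ISRE), and several also respond to interferon-γ, which acts at the gamma-activated site (GAS) and through IRF1.

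Total expected counts per library lay between 16496793 and 17218043. Markers of granulosa cells and oocytes, which define the ovary, were detected in every library but were very low in some. Levels are given in CPM, counts scaled to a common library size. The summed level of 8 oocyte markers was 1.92 CPM in LNPIFN-Y library 5, 2.68 CPM in ptLNPIFN-Y library 5 and 17.7 CPM in LNPIFN-Y library 1, against 41.7 to 296 CPM elsewhere. The summed level of 8 granulosa markers in those libraries was 45.1, 132 and 172 CPM, against 483 to 3064 CPM. Library 5 of each treated group holds no count of the oocyte gene Zp3, and results that change without them are marked.

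On GRCm38.p6 the Oas genes of the deposited table lie in a cluster of 9 within 191.3 kb of chromosome 5 (120730333 to 120921648), in the order Oas2, Oas3, Oas1e, Oas1c, Oas1f, Oas1h, Oas1g, Oas1a and Oas1d. RefSeq also places the transcribed pseudogene Oas1b between Oas1c and Oas1f, which was not analysed here. Oasl2 (114896926 to 114912245) and Oasl1 (114923143 to 114937911) form a separate pair on the same chromosome, both on the plus strand. Oas2 (120730333 to 120749886), Oas3 (120753098 to 120777684), Oas1g (120876142 to 120887613) and Oas1a (120896256 to 120907544) lie on the minus strand. The sensors are spread over other chromosomes, all on the minus strand. Ddx58 is on chromosome 4 (40203777 to 40239825), Ifih1 on chromosome 2 (62595618 to 62646255), Dhx58 on chromosome 11 (100694884 to 100704271) and Eif2ak2 on chromosome 17 (78850504 to 78882572). The Entrez IDs in the table are 246730 for Oas1a, 23960 for Oas1g, 246728 for Oas2, 246727 for Oas3, 231655 for Oasl1, 23962 for Oasl2, 230073 for Ddx58, 71586 for Ifih1, 80861 for Dhx58 and 19106 for Eif2ak2.

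Promoter stretches of these genes are shown because the genes moved together in the treated ovaries and because their known inducers bind short motifs in promoters. RefSeq promoter sequences (GRCm38.p6, windows of 300 bases around the start site) were at hand for 8 of the 10 genes, all except Oas2 and Dhx58. The core of the ISRE, searched on both strands as GAAA and GAAA with any 2 bases between them, was present in 6 of the 8 windows and absent from those of Oasl1 and Oasl2. It was found in 3.443% of all 32851 promoters in that table. The stretches below run along each gene's own strand, with the ISRE core in capitals. They come from chr5:120907500-120907575 (Oas1a), chr5:120887586-120887661 (Oas1g), chr5:120777695-120777764 (Oas3), chr4:40239796-40239853 (Ddx58), chr2:62646206-62646233 (Ifih1) and chr17:78882543-78882584 (Eif2ak2), all on the minus strand. In Oas1a and Oas1g the capitals are 2 overlapping matches, and in Ddx58 the match reads on the other strand. Counted from the start site, matches began upstream at -20 and -14 (Oas1a), -18 and -12 (Oas1g) and -75 (Oas3). They began downstream at 3 (Ddx58), 19 (Eif2ak2) and 33 (Ifih1). The stretches of Oas3 (-105 to -36) and Ifih1 (23 to 50) do not include the start site.
Oas1a: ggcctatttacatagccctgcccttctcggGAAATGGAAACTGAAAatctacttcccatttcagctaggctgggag
Oas1g: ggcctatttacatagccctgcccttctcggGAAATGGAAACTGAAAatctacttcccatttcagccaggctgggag
Oas3: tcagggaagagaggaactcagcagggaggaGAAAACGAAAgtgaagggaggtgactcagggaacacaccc
Ddx58: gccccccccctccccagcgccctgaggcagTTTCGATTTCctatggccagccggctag
Ifih1: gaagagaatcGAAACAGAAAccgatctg
Eif2ak2: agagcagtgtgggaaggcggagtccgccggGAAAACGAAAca

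The stretches of Oas1a and Oas1g differ at 1 of 76 positions. The GAS core, searched as TTCNNNGAA on both strands, was present in 2 of the 8 windows, those of Oas1a and Eif2ak2, and in 8.298% of all promoters. A match describes the letters of the window and shows no binding.

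In both treated groups all 10 genes were higher than in Model. Oas3 had the largest difference, 17.8-fold in LNPIFN-Y and 17.1-fold in ptLNPIFN-Y, and Eif2ak2 the smallest, 2.32-fold and 2.27-fold. In LNPIFN-Y minus Model 10 of 10 passed edgeR's quasi-likelihood test at an adjusted p under 0.05, where 5.25% of all tested genes were called higher. In ptLNPIFN-Y minus Model again 10 of 10 passed, where 6.05% of all tested genes were called higher. Because the genes were chosen with earlier results of these data known, these counts describe them and are no independent support. The median log2 fold change over the 10 genes was 2.35 in LNPIFN-Y and 2.19 in ptLNPIFN-Y, beside -0.028 and -0.05 over all tested genes. No library of LNPIFN-Y overlapped Model for 8 of the genes (4.33% of all tested genes), and no library of ptLNPIFN-Y for 9 (4.83%). Both contrasts share the Model libraries. In a bulk sample, a change in the share of a cell type and a change in RNA per cell cannot be told apart.

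**Figure D1:**
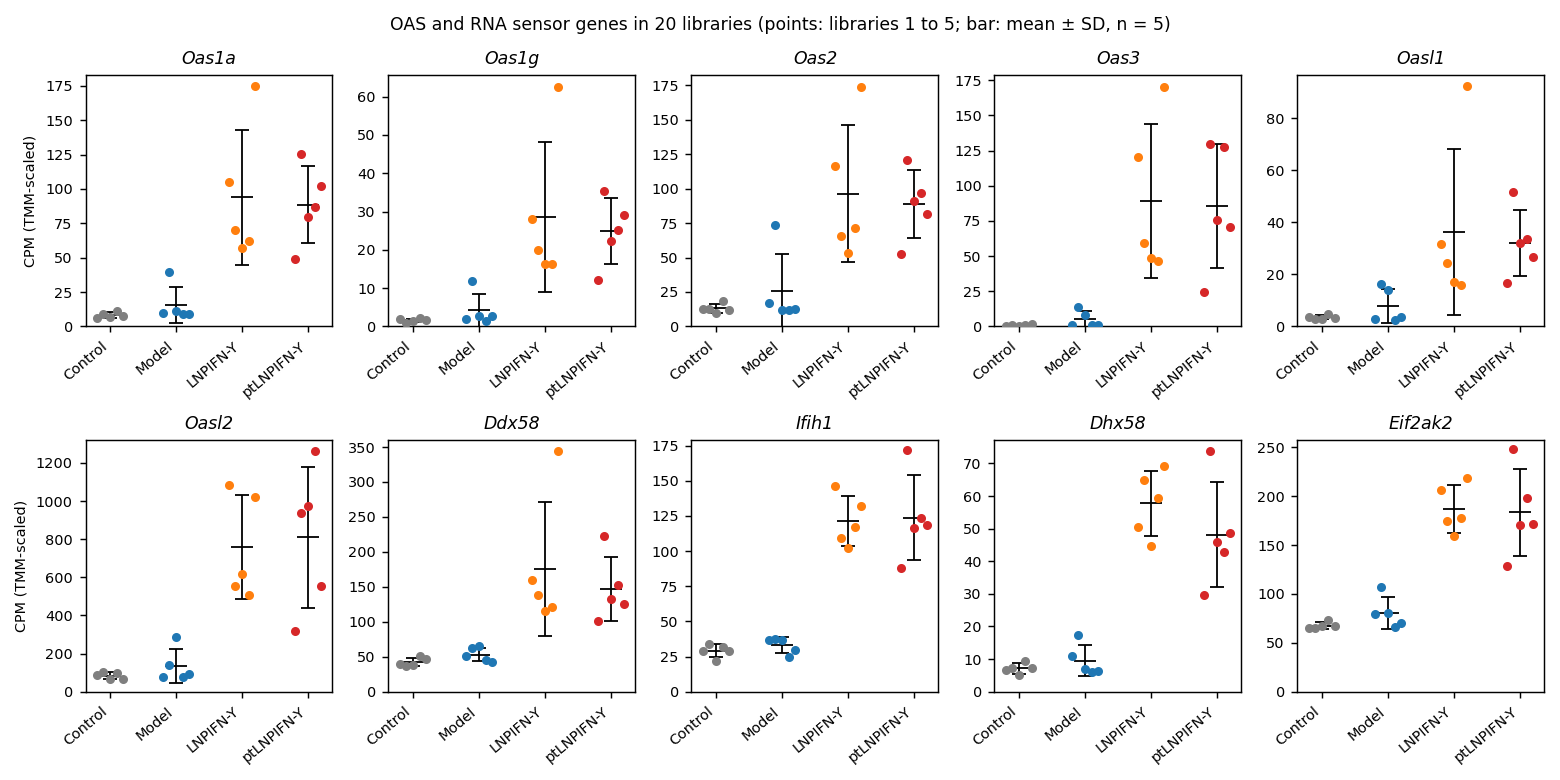
CPM (linear axis, TMM-scaled) of each of the 10 genes in the 20 libraries. Points are libraries 1 to 5 of a group from left to right, bars are the mean ± SD (n = 5), and bars that reach below 0 end at the axis. Model library 2 reaches into the treated range for Oas2 in both treated groups and for Oasl1 in LNPIFN-Y. Otherwise treated libraries lie above Model for every gene. LNPIFN-Y library 5 is the highest of its group for 8 genes and stands well apart for Oas1g, Oasl1 and Ddx58.

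Among the synthetases, Oas3, the largest enzyme of the family, had 0.381, 0.729, 0.495, 1.24 and 1.44 CPM in Control libraries 1 to 5. In Model it had 0.853, 13.7, 8.26, 1.13 and 1.13 CPM. The LNPIFN-Y libraries had 120, 59.3, 48.3, 46.4 and 170 CPM, and the ptLNPIFN-Y libraries 24.7, 130, 75.7, 127 and 70.3 CPM. Model libraries 2 and 3 stood above the other 3 of their group, and no treated library came down to them. Against Model, Oas3 differed by a log2 fold change of 4.15 ± 0.75 (SE) in LNPIFN-Y (edgeR, adjusted p = 0.00149) and 4.10 ± 0.75 in ptLNPIFN-Y (adjusted p = 0.0014). Without Model library 2 the log2 fold changes were 4.98 and 4.92, and with sample quality weights 5.10 and 5.79. Against Control they were 6.69 ± 0.87 and 6.63 ± 0.87, about 103-fold and 99.2-fold.

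Oas1a and Oas1g, the paralogs of the small synthetase that keep enzyme activity in the mouse, were higher together. Oas1a had 8.21 ± 2.12 CPM (SD, n = 5) in Control and 15.7 ± 13.3 CPM in Model. It reached 93.9 ± 48.8 CPM in LNPIFN-Y and 88.5 ± 28.1 CPM in ptLNPIFN-Y. The Model libraries had 9.55, 39.4, 11.2, 8.80 and 9.33 CPM, so that library 2 alone carried the group's spread. Treated libraries began at 49.1 CPM, above all 5 of Model. The log2 fold change of Oas1a against Model was 2.58 ± 0.43 in LNPIFN-Y (edgeR, adjusted p = 0.000782) and 2.50 ± 0.43 in ptLNPIFN-Y (adjusted p = 0.000863). Oas1g had 1.58 ± 0.468, 4.16 ± 4.40, 28.7 ± 19.6 and 24.9 ± 8.61 CPM in Control, Model, LNPIFN-Y and ptLNPIFN-Y. The log2 fold changes of Oas1g against Model were 2.78 ± 0.55 (edgeR, adjusted p = 0.0029) and 2.58 ± 0.54 (adjusted p = 0.00448). Without Model library 2 the log2 fold changes were 3.27 and 3.19 for Oas1a and 3.70 and 3.49 for Oas1g, and with sample quality weights those in ptLNPIFN-Y were 3.16 and 3.58. With only the LNPIFN-Y and Model libraries in the fit, Oas1g missed the threshold (adjusted p = 0.0592).

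How reads divide between Oas1a and Oas1g is uncertain. The longest annotated transcripts of the pair (1885 and 1977 bases) are 90.6% identical, and 57.6% of the 50-base windows of Oas1a occur in Oas1g unchanged. Both genes had expected counts with decimals in 20 of 20 libraries, while their sum was whole in 20 of 20 (tolerance 0.011). RSEM divides reads that match several genes in fractions. Oas1a took 73.6% to 90.4% of the sum. The summed level does not depend on that division. It was 9.79 ± 2.30 CPM in Control and 19.8 ± 17.7 CPM in Model, and it reached 123 ± 68.3 CPM with LNPIFN-Y and 113 ± 36.7 CPM with ptLNPIFN-Y.

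Oas2, which makes oligoadenylates as a dimer, overlapped between Model and both treated groups. It had 17.23, 73.6, 11.7, 12.2 and 12.9 CPM in Model libraries 1 to 5. It had 117, 65.4, 53.2, 71.5 and 174 CPM in LNPIFN-Y and 52.8, 121, 91.3, 96.6 and 82.0 CPM in ptLNPIFN-Y. Model library 2 lay inside the treated range, and the other 4 Model libraries lay below every treated library. Oas2 rose by 1.91 ± 0.48 on the log2 scale in LNPIFN-Y (edgeR, adjusted p = 0.0198) and 1.80 ± 0.48 in ptLNPIFN-Y (adjusted p = 0.0262). Without Model library 2 these were 2.83 and 2.71, and with sample quality weights the value in ptLNPIFN-Y was 2.62. The calls were lost when only the 2 groups compared entered the fit (adjusted p = 0.172 and 0.119), with 2 tissue marker covariates (0.161 and 0.0872) and when Model library 1, 4 or 5 was left out (0.0537 to 0.0835). They were also lost in LNPIFN-Y without its library 5 (0.0723) or without both Zp3-negative libraries (0.0836), and in ptLNPIFN-Y without its library 2 (0.0625), 4 (0.0548) or 5 (0.051).

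The OAS-like genes differed in level and in spread. Oasl2, an OAS-like protein with ubiquitin-like domains that keeps synthetase activity in the mouse, had 74.4, 141, 289, 78.8 and 90.3 CPM in Model. LNPIFN-Y libraries had 1082, 554, 620, 508 and 1024 CPM, and ptLNPIFN-Y libraries 321, 939, 974, 1261 and 553 CPM. Here Model library 3, not library 2, was the highest of Model, and every treated library was above it. The log2 fold change of Oasl2 was 2.49 ± 0.41 in LNPIFN-Y (edgeR, adjusted p = 0.000618) and 2.59 ± 0.41 in ptLNPIFN-Y (adjusted p = 0.00037).

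Oasl1, an OAS-like protein without synthetase activity that restrains IRF7 translation in mouse cells, had 3.01, 16.2, 13.9, 2.31 and 3.68 CPM in Model. LNPIFN-Y libraries had 31.6, 24.4, 17.1, 15.998 and 92.3 CPM, and ptLNPIFN-Y libraries 16.7, 51.7, 32.3, 33.5 and 26.7 CPM. LNPIFN-Y library 5 stood far above the rest, and LNPIFN-Y library 4 lay just below Model library 2. Oasl1 rose by 2.21 ± 0.57 on the log2 scale in LNPIFN-Y (edgeR, adjusted p = 0.0238) and 2.04 ± 0.57 in ptLNPIFN-Y (adjusted p = 0.0338). In LNPIFN-Y it fell to 1.51 without library 5 (adjusted p = 0.113), to 1.54 without both Zp3-negative libraries (0.116) and to 1.60 with the tissue covariates (0.178), and the call was lost with the 2 groups alone (0.18) and without Model library 1, 4 or 5 (0.0575 to 0.0777). The ptLNPIFN-Y call was lost with the 2 groups alone (0.0972), with the tissue covariates (0.0552), without Model library 1, 4 or 5 (0.0796 to 0.0927) and without ptLNPIFN-Y library 2, 4 or 5 (0.0555 to 0.0847). With sample quality weights the ptLNPIFN-Y log2 fold change was 3.33.

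The RNA sensors had smaller SEs than the synthetases. Ifih1, whose product MDA5 binds long double-stranded RNA, had 36.6, 37.7, 36.7, 24.7 and 29.4 CPM in Model. LNPIFN-Y libraries had 146, 109, 102, 117 and 132 CPM, and ptLNPIFN-Y libraries 87.9, 172, 116, 124 and 119 CPM. No treated library came near Model. Ifih1 rose by 1.88 ± 0.17 on the log2 scale in LNPIFN-Y (edgeR, adjusted p = 5.66e-07) and 1.91 ± 0.17 in ptLNPIFN-Y (adjusted p = 3.86e-07), the smallest p-values among the 10 genes in both contrasts.

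Ddx58, whose product RIG-I binds short double-stranded RNA with a triphosphate end, had 50.5, 61.9, 65.0, 45.4 and 42.8 CPM in Model. It had 160, 139, 116, 122 and 345 CPM in LNPIFN-Y and 101, 223, 132, 152 and 125 CPM in ptLNPIFN-Y. LNPIFN-Y library 5 again stood apart, and the groups did not overlap. Ddx58 rose by 1.73 ± 0.27 on the log2 scale in LNPIFN-Y (edgeR, adjusted p = 0.000394) and 1.47 ± 0.27 in ptLNPIFN-Y (adjusted p = 0.0015).

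Dhx58 encodes LGP2, a relative of RIG-I and MDA5 that lacks their signalling domains and tunes both. It had 10.9, 17.3, 6.98, 5.96 and 6.28 CPM in Model, 50.6, 64.9, 44.7, 59.3 and 69.3 CPM in LNPIFN-Y and 29.6, 73.8, 45.9, 42.8 and 48.7 CPM in ptLNPIFN-Y. Dhx58 rose by 2.61 ± 0.29 on the log2 scale in LNPIFN-Y (edgeR, adjusted p = 8.59e-06) and 2.35 ± 0.29 in ptLNPIFN-Y (adjusted p = 2.51e-05). Eif2ak2 had 79.5, 107, 80.9, 65.8 and 69.9 CPM in Model, 207, 175, 159, 178 and 218 CPM in LNPIFN-Y and 129, 249, 170, 199 and 171 CPM in ptLNPIFN-Y. All treated libraries were above all Model libraries for both genes, the closest being ptLNPIFN-Y library 1. The log2 fold change of Eif2ak2 was 1.22 ± 0.15 (edgeR, adjusted p = 3.19e-05) and 1.18 ± 0.15 (adjusted p = 3.75e-05). Genes annotated on the opposite strand overlap Oas2, Oasl1, Dhx58 and Eif2ak2, and with strandedness not stated their reads could not be told apart. A processed pseudogene, Gm6548, overlaps Eif2ak2 on the same strand. Expected counts carried decimals in 10 libraries for Eif2ak2 and in 6 for Oas3. How far reads of these 2 genes were shared with other genes was not tested.

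**Figure D2:**
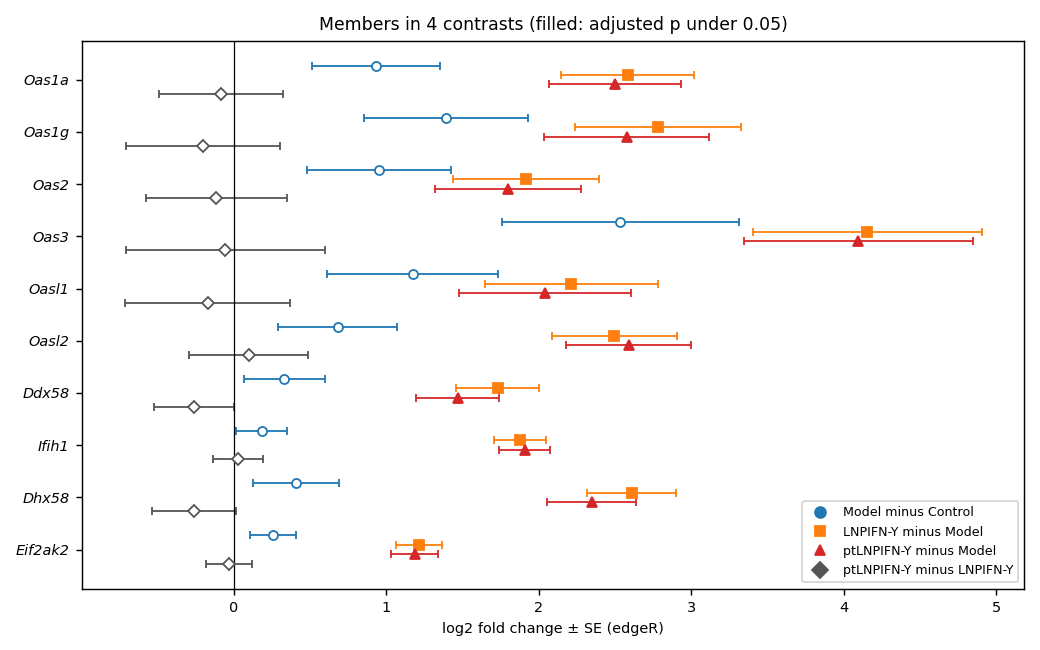
Log2 fold change with its SE (edgeR, horizontal axis) of the 10 genes in 4 contrasts, filled where the adjusted p was under 0.05. All 10 genes are filled in both contrasts of a treated group with Model, from 1.22 to 4.15 and from 1.18 to 4.10, and none is filled in Model minus Control or ptLNPIFN-Y minus LNPIFN-Y.

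Against Control, 10 of 10 genes were higher in LNPIFN-Y, where 10.8% of tested genes were called higher, and 10 of 10 in ptLNPIFN-Y, where 12.2% were. The groups did not overlap for any of the 10 genes in either contrast (13% and 11.1% of all tested genes). The median log2 fold change was 3.09 in LNPIFN-Y and 2.98 in ptLNPIFN-Y, and the range ran from 1.47 and 1.44 for Eif2ak2 to the values of Oas3 given above. These calls held under every alternative processing tried. Sizes moved by over 1.5 times in LNPIFN-Y minus Control for Oasl1 (3.39, and 2.45 to 2.72 with sample quality weights, with the tissue covariates, without the Zp3-negative libraries or without LNPIFN-Y library 5), for Oas1g (4.17, and 3.38 with sample quality weights) and for Oas3 (5.90 with the tissue covariates).

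The tumour model without particles gave a less even picture. All 10 genes had a positive log2 fold change in Model minus Control, with a median of 0.8 beside 0.013 over all tested genes, but 0 of 10 passed the test, where 0% of tested genes were called. Oas3 came closest, at 2.54 ± 0.78 (edgeR, adjusted p = 0.842; DESeq2, adjusted p = 0.0993). Over all tested genes edgeR gave 665 genes with a positive difference and an unadjusted p under 0.05 (4.23%), and DESeq2 called 24 genes higher and 2 lower. With sample quality weights Oas3 was at 1.11, Oas1g at 0.32 and Oas2 at 0.17, and the sign of Oasl1 turned (-0.043).

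The Model values came largely from libraries 2 and 3. Model library 2 had 15.97 times the Control mean of Oas3, 7.58 times that of Oas1g, 5.58 times that of Oas2, 4.80 times that of Oas1a and 4.68 times that of Oasl1, but 1.29 times that of Ifih1. Model library 3 had 9.65 times the Control mean of Oas3, 4.01 times that of Oasl1 and 3.44 times that of Oasl2, but 0.88 times that of Oas2 and 1.37 times that of Oas1a. Model libraries 1, 4 and 5 lay between 0.67 and 1.72 times the Control mean for every gene. Without library 2 the Model minus Control log2 fold change was 0.03 for Oas2, 0.24 for Oas1a, 0.48 for Oas1g, 0.08 for Dhx58, 0.13 for Eif2ak2 and 1.71 for Oas3. It was 0.72 for Oasl1 without library 2, and 0.19 for Oasl2 without library 3. The same 2 libraries had the highest summed level of 14 leukocyte markers in Model, at 243 and 277 CPM, where the other 3 had 86.6 to 141 CPM. Other markers set them apart as well. The sum of 7 markers of mesothelium and ovarian surface epithelium was 1373 and 1465 CPM, against 355 to 566 in the other 3. The 8 oocyte markers summed to 60.3 and 49.1 CPM, against 152 to 269, and the 7 theca and luteal markers to 2246 and 2706 CPM, against 7846 to 14590. Ifne, the gene of the interferon made by female reproductive epithelium, had 3.08 CPM in Model library 2, against at most 0.911 CPM in any Control library. It had 0.061 CPM in Model library 3, at most 0.182 CPM in LNPIFN-Y and at most 1.33 CPM in ptLNPIFN-Y. The part of these in the result was not tested.

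**Figure D3:**
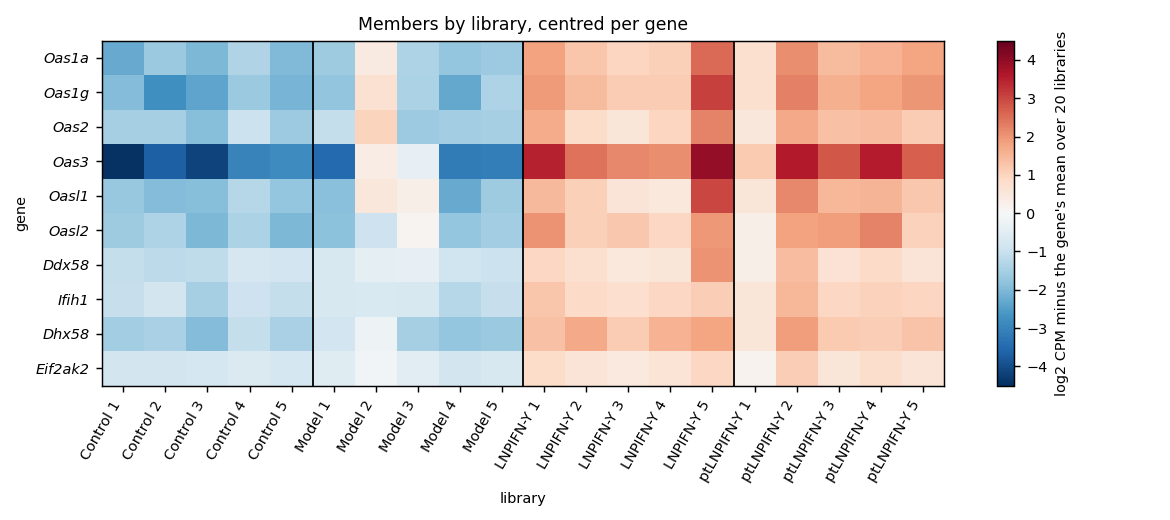
Log2 CPM of the 10 genes (rows) in the 20 libraries (columns), each gene centred on its mean over all libraries, blue for lower and red for higher. The Control columns and those of Model libraries 1, 4 and 5 are blue for all genes. Model library 2 is pale red for Oas1a, Oas1g, Oas2, Oas3 and Oasl1, and Model library 3 for Oasl1 and Oasl2. Their other genes are blue. All treated columns are red, with the lowest mean (0.549) in ptLNPIFN-Y library 1.

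The particle with the targeting peptide and the one without it gave no difference that passed the test. In ptLNPIFN-Y minus LNPIFN-Y 0 of 10 genes were called, where 0% of tested genes were called higher or lower by edgeR or DESeq2 and 225 (1.43%) had a positive difference at an unadjusted p under 0.05. The log2 fold change lay between -0.26 and 0.10, with a median of -0.10. The 95% interval was narrowest for Eif2ak2 (-0.346 to 0.285) and Ifih1 (-0.317 to 0.372) and widest for Oas3 (-1.428 to 1.314), Oasl1 (-1.314 to 0.967) and Oas1g (-1.27 to 0.861). For Oas1a it was -0.942 to 0.773, for Oas2 -1.089 to 0.854, for Oasl2 -0.72 to 0.91, for Ddx58 -0.819 to 0.294 and for Dhx58 -0.843 to 0.318. The sign depended on single libraries: without LNPIFN-Y library 5, Oas3 was at 0.32, Oasl1 at 0.53 and Oas1a at 0.27. These intervals leave room for differences of up to about 2-fold in either direction for most of the synthetases, so equal action of the particles was not shown.

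Within the treated groups the 10 genes tended to be high or low in the same library. LNPIFN-Y library 5 was the highest of its group for 8 genes and library 1 for 2, while library 3 was the lowest for 7. Libraries 5 and 1 also had the group's lowest sums of oocyte markers (1.92 and 17.7 CPM, others 118.6 to 212.2). Their granulosa sums were the lowest as well (45.1 and 172 CPM, others 1121 to 1725). Their sums of mesothelium and ovarian surface epithelium markers were the highest (2139 and 1182 CPM, others 553.5 to 820.5). In ptLNPIFN-Y, library 2 was the highest for 9 genes and library 1 the lowest for 10. There library 1 had the highest oocyte and granulosa sums (233.5 and 2577 CPM). Library 5 had the lowest (2.68 and 131.8 CPM) but was the highest for 0 genes. The part of tissue content in these differences between libraries was not tested. The mean centred log2 CPM of the 10 genes was -1.69 ± 0.25 (SD, n = 5) in Control and -1.08 ± 0.74 in Model. With LNPIFN-Y it was 1.42 ± 0.55 and with ptLNPIFN-Y 1.36 ± 0.51. The highest Model library reached 0.058 and the lowest treated library 0.549.

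Per length of gene, the order of levels changed with treatment. In Control, Oasl2 was highest at 26.7 CPM per kb, followed by Eif2ak2 at 10.2, Ddx58 at 8.55, Ifih1 at 5.01, Oas1a at 4.08, Dhx58 at 2.95, Oas2 at 2.20, Oasl1 at 1.51, Oas1g at 0.764 and Oas3 at 0.174 CPM per kb. The ranges of neighbours in that order overlapped between libraries except Oasl2 and Eif2ak2, Ddx58 and Ifih1, Oasl1 and Oas1g, and Oas1g and Oas3. Compared within each library, every pair of neighbours kept this order in all 5, except Ifih1 above Oas1a, in 4. In Model the mean order was Oasl2, Eif2ak2, Ddx58, Oas1a, Ifih1, Oas2, Dhx58, Oasl1, Oas1g and Oas3, from 42.8 to 1.02 CPM per kb, and only Oasl2 stood clear of the next. Within libraries of Model, Oas2 was above Dhx58 in only 1 of 5 and Oas1a above Ifih1 in only 2 of 5. The other neighbours kept the order in 4 or 5. In ptLNPIFN-Y the mean order was Oasl2 at 257 CPM per kb, then Oas1a at 44.0, Ddx58 at 29.7, Eif2ak2 at 27.7, Ifih1 at 21.3, Dhx58 at 19.96, Oas3 at 17.4, Oas2 at 14.8, Oasl1 at 14.0 and Oas1g at 12.0 CPM per kb. In LNPIFN-Y the mean order was the same except that Dhx58 (23.9 CPM per kb) preceded Ifih1 (20.9). In both treated groups only Oasl2 stood clear of the next gene, and the ranges of all further neighbours overlapped. Within libraries, Oas1a was above Ddx58 in 5 of 5 of each treated group, and Eif2ak2 above Ifih1 in 5 of 5 of ptLNPIFN-Y. The remaining neighbours kept the order in 3 or 4. By mean, Oas3 was thus last of the 10 in Control and in Model, and 7th in both treated groups among overlapping neighbours.

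The other Oas1 paralogs of the cluster gave no call. Of 5 in the table, 4 were tested (Oas1f fell under the filter), and 0 of 4 were called in any contrast. Of all tested genes, 5.25% and 6.05% were higher in the treated groups than in Model. With shares this low, 0 of 4 is no result about the paralogs. Oas1c was at 13.8 CPM in Control, and its log2 fold change against Model was 0.42 ± 0.27 in LNPIFN-Y (edgeR, adjusted p = 0.416) and 0.32 ± 0.27 in ptLNPIFN-Y (adjusted p = 0.479). Oas1d, an oocyte protein without synthetase activity in the mouse, was at -0.32 ± 0.96 and -0.71 ± 0.97, Oas1e at -0.22 ± 1.04 and -0.42 ± 1.04, and Oas1h at -0.32 ± 0.75 and -0.82 ± 0.76. The 95% intervals in LNPIFN-Y minus Model reached 1.70 for Oas1d, 1.96 for Oas1e and 1.26 for Oas1h, so rises of the size of Eif2ak2 were not excluded for these, and 0.981 for Oas1c. The difference from the 10 genes was not tested. Oas1e had 0 counts in LNPIFN-Y library 5 and ptLNPIFN-Y library 5, the Zp3-negative libraries. The Oas1c window also holds 2 overlapping matches of the ISRE core, on the other strand and farther from the start site (chr5:120812583-120812658, minus strand), shown as a paralog that has the letters and did not pass the test.
Oas1c: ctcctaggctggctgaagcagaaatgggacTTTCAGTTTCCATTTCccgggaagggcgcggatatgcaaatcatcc

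**Figure D4:**
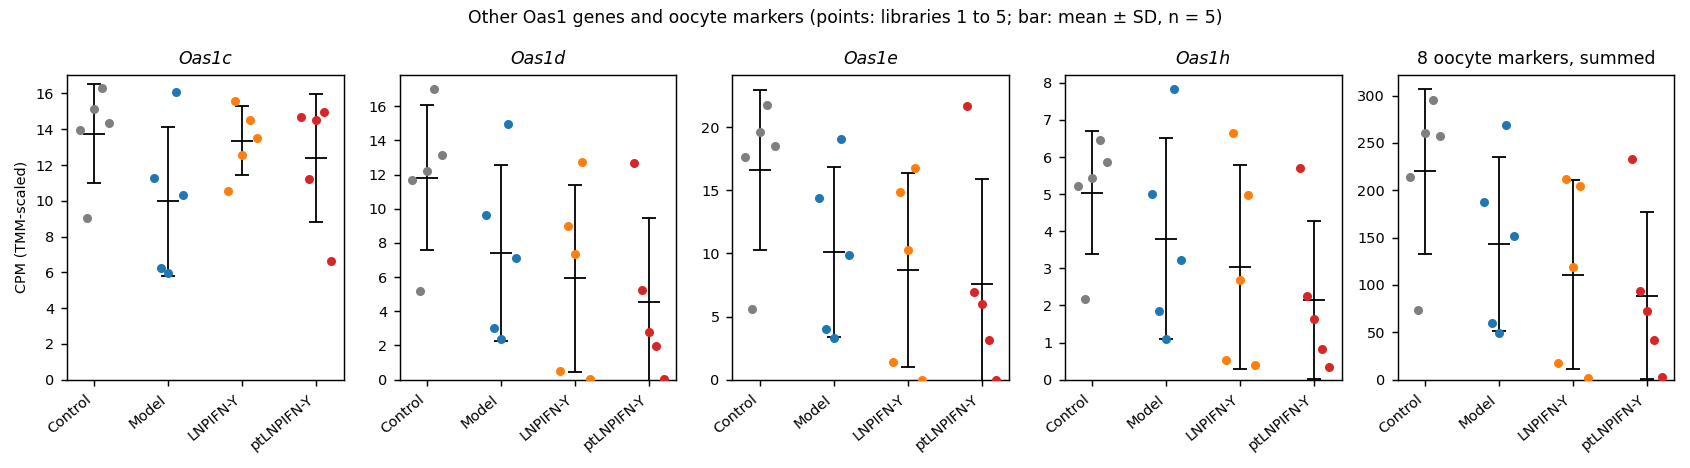
CPM (linear axis) of the 4 tested Oas1 paralogs outside the 10 genes and the summed CPM of 8 oocyte markers in the 20 libraries, with points for libraries 1 to 5 and bars for the mean ± SD (n = 5). The libraries lowest for the summed oocyte markers, LNPIFN-Y 5 and ptLNPIFN-Y 5, are also at or near 0 for Oas1d and Oas1e, and Oas1c stays between 5.95 and 16.3 CPM in all libraries.

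Partner genes of the OAS and sensor pathways were taken from lists of each branch. Among 17 genes of RIG-I and MDA5 signalling, 5 were higher in LNPIFN-Y and 6 in ptLNPIFN-Y than in Model. These counts stand beside 5.25% and 6.05% of all tested genes. None was lower, where 0.566% and 0.948% of all tested genes were, with list medians of 0.28 and 0.41. Irf7, the factor that amplifies interferon transcription, rose by 3.69 ± 0.30 (edgeR, adjusted p = 1.84e-07) and 3.61 ± 0.30 (adjusted p = 1.79e-07) on the log2 scale. Trim25 and Rnf135, ubiquitin ligases that act on RIG-I, rose by 0.85 ± 0.14 and 0.59 ± 0.10 in LNPIFN-Y and by 0.72 ± 0.14 and 0.55 ± 0.10 in ptLNPIFN-Y. The kinases Tbk1 (0.42 and 0.41) and Ikbke (0.54 and 0.44) rose in both groups. Tax1bp1, an autophagy receptor, passed the test in ptLNPIFN-Y (0.46 ± 0.13, adjusted p = 0.0343) but not in LNPIFN-Y (0.23 ± 0.13, adjusted p = 0.342). Mavs, the shared adaptor, was at 0.09 ± 0.32 (adjusted p = 0.90) and 0.56 ± 0.32 (adjusted p = 0.301), and Irf3 at -0.05 ± 0.06 and -0.08 ± 0.06.

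Of 12 genes of PKR and the integrated stress response, 1 was higher in LNPIFN-Y and 2 in ptLNPIFN-Y, and 0 were lower (list medians 0.07 and 0.05). The counts were not tested against the 5.25% and 6.05% of all tested genes called higher. With only 1 or 2 genes called they are no result about this list. Atf3, a stress-induced transcription factor, rose by 1.19 ± 0.33 (edgeR, adjusted p = 0.0386) and 1.34 ± 0.33 (adjusted p = 0.0159). Ddit3, encoding CHOP, was at 0.59 ± 0.18 in LNPIFN-Y (adjusted p = 0.0654) and rose by 0.67 ± 0.18 in ptLNPIFN-Y (adjusted p = 0.0282). Eif2s1, encoding eIF2α, the substrate of PKR, was at 0.07 ± 0.09 in both. Of 12 genes of double-stranded RNA editing and other RNA sensing, 4 were higher in each treated group and 0 were lower (list medians -0.04 and -0.04). These were Zbp1, a sensor of left-handed nucleic acids (4.77 ± 0.41 and 4.86 ± 0.42), Ddx60, a helicase linked to RIG-I (2.40 ± 0.25 and 2.54 ± 0.25), the RNA editing enzyme Adar (1.13 ± 0.12 and 1.01 ± 0.12) and the antiviral zinc finger protein gene Zc3hav1 (0.66 ± 0.12 and 0.63 ± 0.12).

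**Figure D5:**
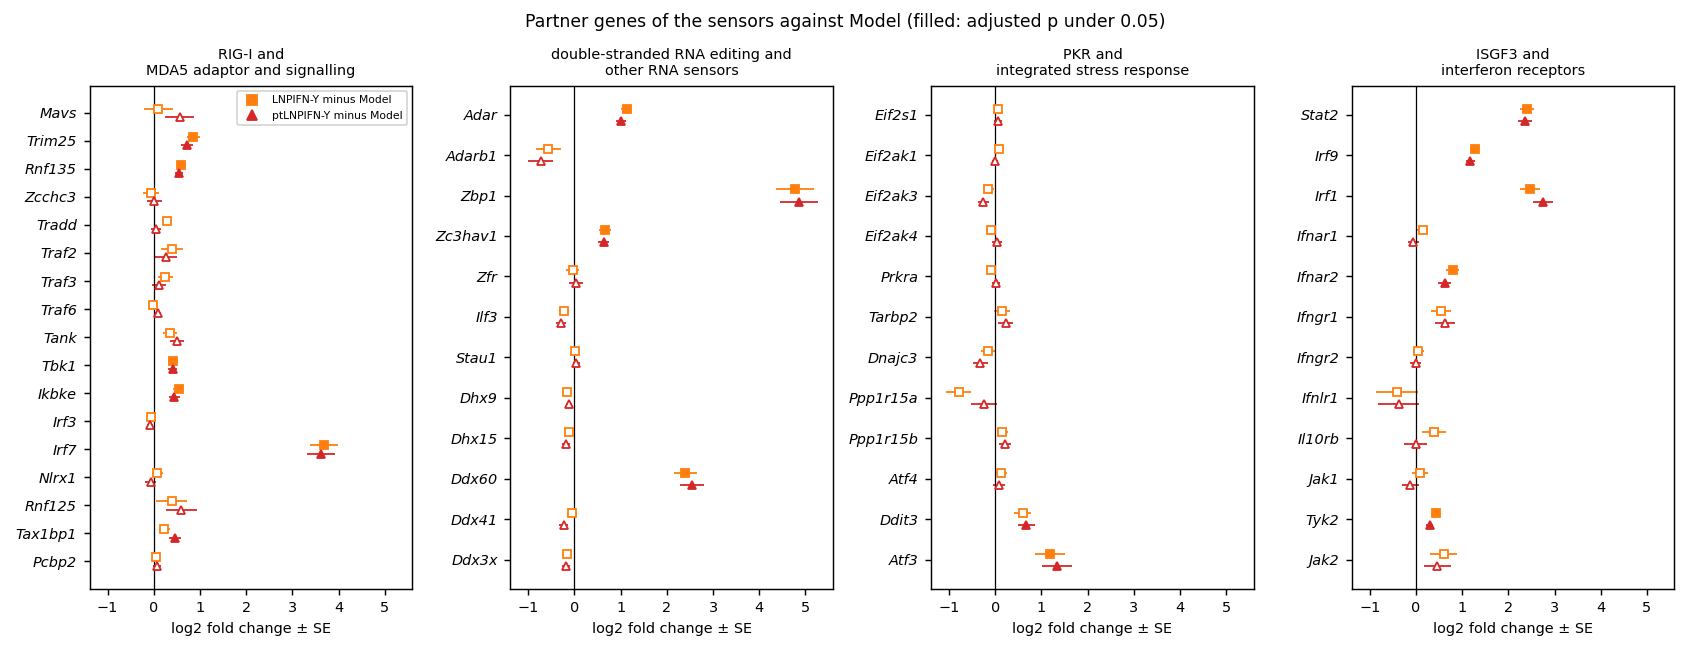
Log2 fold change with its SE (edgeR, horizontal axis) of partner genes in 4 lists, for LNPIFN-Y minus Model and ptLNPIFN-Y minus Model, filled where the adjusted p was under 0.05. Filled points reach 4.86 for Zbp1, 3.69 for Irf7 and 2.76 for Irf1, while Mavs, Irf3 and Eif2s1 are open in both contrasts.

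The transcription factors that act on these genes were higher as well. Of 12 genes of ISGF3 and the interferon receptors, 5 were higher in each treated group than in Model, beside 5.25% and 6.05% of all tested genes. None was lower (0.566% and 0.948% of all tested genes), with list medians of 0.49 and 0.38. Stat2 rose by 2.41 ± 0.15 (edgeR, adjusted p = 1.47e-08) and 2.36 ± 0.15 (adjusted p = 1.07e-08) on the log2 scale, Irf9 by 1.28 ± 0.10 and 1.18 ± 0.10, and Irf1 by 2.47 ± 0.22 and 2.76 ± 0.22. Ifnar2, a subunit of the type I interferon receptor, rose by 0.80 ± 0.14 and 0.62 ± 0.14, and the receptor kinase Tyk2 by 0.43 ± 0.08 and 0.30 ± 0.08.

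Interferon transcripts themselves were scarce. The table has 14 interferon ligand genes, of which 2 passed the filter and Ifng alone was called. Of all tested genes, 5.25% in LNPIFN-Y and 6.05% in ptLNPIFN-Y were called higher than in Model. Ifng had 0, 0, 0.055, 0.054 and 0.115 CPM in Control and 0.057, 0.058, 0.243, 0.054 and 0.170 CPM in Model. The LNPIFN-Y libraries had 0.648, 3.03, 0.342, 0.304 and 1.59 CPM, and the ptLNPIFN-Y libraries 1.05, 1.13, 1.21, 1.45 and 0.737 CPM. All treated libraries were above all Model libraries, at log2 fold changes of 3.28 ± 0.70 (edgeR, adjusted p = 0.00584) and 3.19 ± 0.70 (adjusted p = 0.00613). Reads of cellular Ifng and of the particles' mRNA cannot be told apart in a table of gene counts. Ifnb1 had no count in Control or Model, and in the treated groups it reached at most 0.065 CPM in LNPIFN-Y and 0.126 CPM in ptLNPIFN-Y, too few to test.

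Most leukocyte markers leaned the same way as the 10 genes, with 13 of 14 positive against Model in each treated group. Of 14 markers, 8 were higher in each treated group than in Model, where 5.25% and 6.05% of all tested genes were higher. None was lower (0.566% and 0.948% of all tested genes), with list medians of 1.85 and 2.38. Not every marker rose. Mean levels of Siglech were 1.02 CPM in Model, 0.622 CPM in LNPIFN-Y and 1.055 CPM in ptLNPIFN-Y. Those of Itgam were 35.6, 43.8 and 33.9 CPM. In both groups Ptprc, the pan-leukocyte gene, rose (2.24 ± 0.35 and 2.33 ± 0.35), as did Cd3e (2.29 and 2.70), Cd8a (1.99 and 2.64), Cd4 (2.16 and 2.36), Ncr1 (2.40 and 2.93) and Itgax (2.41 and 2.64). Their summed level ran from 83.0 to 132 CPM in Control and 86.6 to 277 CPM in Model. With LNPIFN-Y it ran from 253 to 873 CPM and with ptLNPIFN-Y from 290 to 614 CPM, and no marker was at 0 in all libraries of a group. The highest sum was in LNPIFN-Y library 5, which was also the highest of its group for 8 of the 10 genes. In ptLNPIFN-Y the highest sum, 614 CPM, was in library 5, which was the highest for 0 of the 10 genes, while library 2, the highest for 9, had 516 CPM. The part of leukocyte content in the result was not tested. Oviduct, granulosa, oocyte, theca or luteal and adipocyte markers had 0 genes called against Model in either treated group, although several lists leaned one way. Oviduct markers had medians of -1.91 in LNPIFN-Y and -1.83 in ptLNPIFN-Y with 0 of 8 positive, and granulosa markers -0.92 and -0.77 with 0 of 8 positive. Oocyte markers had medians of -0.33 and -0.72, theca and luteal markers -0.43 and -0.71, and adipocyte markers 0.76 and 1.97 with 7 of 7 positive. Their part in the result was not tested beyond the fit with 2 tissue marker covariates, the oviduct mean and the joint mean of granulosa and oocyte markers, whose values stand beside the genes above where it changed a call or a size. Of 7 markers of mesothelium and ovarian surface epithelium 1 was higher in LNPIFN-Y and 0 in ptLNPIFN-Y. Beside 5.25% and 6.05% of all tested genes, these counts are no result about that list. Its medians were 0.41 and 0.37, with 5 of 7 positive in each.

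Of all other tested genes, the 5 whose log2 CPM followed the mean of the 10 genes most closely across the 20 libraries were Isg15 (Pearson r = 0.989), Phf11b (0.986), Ly6a (0.984), Ifi44 (0.984) and Zbp1 (0.983), out of 15713 compared. The libraries fall into untreated and treated groups that differ in all of these genes, so the correlation describes that division and no test was made. Isg15, a ubiquitin-like protein gene, had 4.45 to 10.4 CPM in Control and 6.28 to 16.7 CPM in Model, but 69.6 to 146 CPM with LNPIFN-Y and 59.8 to 175 CPM with ptLNPIFN-Y.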

How the data were processed

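The authors deposited expected counts per gene for 20 mouse ovary libraries. The submitters' processing notes name HISAT2, RSEM, StringTie, DESeq2 and the build GRCm38.p6, without versions or roles. Expected counts, of which 9.85% carry decimals, were rounded to whole numbers. 1 row that names no values was left out, and 26 symbols turned into dates were restored by gene ID. Gene positions and lengths are the deposited ones. The members and gene lists were chosen with earlier results of these data known. All 10 genes were described in every contrast, and from each other list at most 6 genes that passed the test against Model by smallest p in ptLNPIFN-Y minus Model, with Mavs, Ifnb1, Ifng, Stat2, Irf9, Irf3, Irf7, Eif2s1 and Adar whatever their values. The Oas1 paralogs were added as a short list. Some genes that the rule names, and their values, are not reported here. Ifne was named after its values were seen. The 5 genes most like the members were ranked by Pearson r with their mean centred log2 CPM.

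The counts entered edgeR 4.0.16 (R 4.3.3). After filterByExpr (minimum count 10) and TMM scaling, a single quasi-likelihood fit covered all 20 libraries, with 16 residual degrees of freedom. Benjamini-Hochberg adjustment ran over 15723 genes, with a threshold of 0.05. SEs were derived from the size of the log2 fold change and its F statistic. The prior count of log2 CPM was 2. The test was tried on simulated counts first. The alternatives were DESeq2 1.42.0, RLE and upper-quartile factors, library size alone, no filter, the 2 groups alone, sample quality weights (limma 3.58.1), a replicate block, 2 tissue marker covariates, leaving out the 2 Zp3-negative libraries and leaving out each library.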

Additional observations from a re-analysis of the deposited data

Results flagged for a closer look

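In each group of 5 libraries the gap between the highest or lowest library and its nearest neighbour was compared with the whole range of the group, with a critical ratio of 0.71. Of 40 combinations of gene and group, 7 exceeded it. The critical ratio is set for about 1 in 20 by chance among independent, normally distributed values. The values here are CPM on a linear scale, and the genes tended to move together within libraries. The count of 7 was therefore not tested against that rate. Model library 2 stood above its group for Oas1a (39.4 CPM, others 8.80 to 11.2), Oas1g (11.97 CPM, others 1.40 to 2.72) and Oas2 (73.57 CPM, others 11.65 to 17.23). LNPIFN-Y library 5 stood above its group for Ddx58 (344.9 CPM, others 115.7 to 159.6), Oas1g (62.63 CPM, others 16.34 to 27.95) and Oasl1 (92.33 CPM, others 15.998 to 31.58). Control library 4 stood above its group for Eif2ak2, at 73.33 CPM with the others between 65.05 and 67.31.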

How the results depend on the processing

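Of the log2 fold changes of the 10 genes against Model, 32 values lost the call under an alternative (16 in each treated group), all of Oas2, Oasl1 or Oas1g, and none changed sign. Between 7 and 10 genes were called in LNPIFN-Y minus Model and between 8 and 10 in ptLNPIFN-Y minus Model, and 10 in both contrasts with Control throughout. In ptLNPIFN-Y minus LNPIFN-Y, where nothing passed the test, signs turned. With sample quality weights Ddx58 was at 0.333, Eif2ak2 0.196, Oas1a 0.509, Oas1g 0.518, Oas2 0.499, Oas3 0.688 and Oasl1 0.828, and Oasl1 was at -0.043 in Model minus Control. Without the Zp3-negative libraries the values were Ddx58 0.155, Eif2ak2 0.027, Oas1a 0.181, Oas1g 0.211, Oas2 0.211, Oas3 0.349 and Oasl1 0.561. With the tissue covariates they were Oas1a 0.058, Oas1g 0.006, Oas2 0.035, Oas3 0.222 and Oasl1 0.25. Leaving out 1 library gave Ddx58 -0.464 to 0.132, Eif2ak2 -0.166 to 0.073, Ifih1 -0.121 to 0.128, Oas1a -0.243 to 0.265, Oas1g -0.368 to 0.302, Oas2 -0.265 to 0.209, Oas3 -0.257 to 0.318, Oasl1 -0.412 to 0.53 and Oasl2 -0.11 to 0.298. The cause was not tested.

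Whether replicate numbers pair the libraries is not stated. Correlations of same-numbered deviations ran from -0.698 to 0.76. Differently numbered libraries were not compared, so these values cannot decide on pairing. With a replicate block Oasl1 missed the threshold in LNPIFN-Y minus Model (2.30, adjusted p = 0.0524), Oasl2 was at -0.017 in ptLNPIFN-Y minus LNPIFN-Y, and the whole table gave 685 higher and 33 lower calls in LNPIFN-Y minus Model, with 797 and 79 in ptLNPIFN-Y minus Model.

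In the whole table, LNPIFN-Y minus Model gave 825 higher and 89 lower genes (542 to 1339 and 8 to 580 over the alternatives) and ptLNPIFN-Y minus Model 951 and 149 (670 to 1946 and 44 to 766). Against Control 1699 and 515 (569 to 2735, 21 to 2427) and 1916 and 847 (735 to 3443, 82 to 2646) were called. Splits against Control were 1372 and 1265 (LNPIFN-Y) and 1491 and 2241 (ptLNPIFN-Y) with library size alone, and 1490 and 1029, and 1682 and 1423, with upper-quartile factors. Library size alone moved the median of all genes to -0.178 in ptLNPIFN-Y minus Model and -0.129 in LNPIFN-Y minus Model, and gave 751 higher and 219 lower, and 900 and 731, in LNPIFN-Y and ptLNPIFN-Y minus Model.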
